A study of Mus musculus with 17 samples.

Results

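Transcript levels of 10 genes were followed in male mouse germ cells lacking Pld6, Dnmt3l or both. The genes were 5 members of the phospholipase D (PLD) family (Pld1, Pld2, Pld3, Pld4 and Pld6), 4 genes of mitochondrial fusion and fission (Mfn1, Mfn2, Opa1 and Dnm1l) and Lpin1. Members were taken by gene symbol, and all 10 were found among the 23980 genes listed in each of the 2 expression tables. The 17 libraries were made from polyA(+) RNA with a stranded kit, on a C57BL6/J background. At the leptotene/zygotene (L/Z) stage of meiotic prophase, spermatocytes purified by FACS from animals aged 3 to 4 weeks gave 2 WT, 2 Pld6 KO and 2 Dnmt3L KO libraries. Whole testes at postnatal day 0 (P0) gave 2 WT, 4 Pld6 KO, 2 Dnmt3L KO and 3 Pld6 and Dnmt3L double KO (DKO) libraries. Both mutant lines had been backcrossed to C57BL/6J. A P0 library held somatic cells of the testis as well as germ cells, and the animals behind each library are not named.

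PLD6, also called MitoPLD or Zucchini, sits on the outer surface of mitochondria and is needed to make PIWI-interacting RNAs (piRNAs), the small RNAs that guide retrotransposon silencing in the male germ line. The same protein has been described as a phospholipase that makes phosphatidic acid from cardiolipin and so promotes mitochondrial fusion, while lipin 1, the product of Lpin1, removes phosphatidic acid. Fusion of the outer membrane needs the mitofusins MFN1 and MFN2, fusion of the inner membrane needs OPA1, and fission needs the dynamin-like protein DRP1, encoded by Dnm1l. DNMT3L is a cofactor of the de novo DNA methyltransferases, and male germ cells without it carry unmethylated retrotransposons into meiosis. The comparisons address whether loss of the mitochondrial PLD, or of de novo methylation, was accompanied by a change in the RNA of its relatives or of the fusion and fission machinery.

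Pld6 is a short gene on the minus strand of chromosome 11 (GRCm38.p6, 59783893 to 59787657). Its upstream sequence is shown because Pld6 was the deleted gene and, as described below, the member with the highest ratio of its L/Z to its P0 level in WT. The window covers the 250 bases before the annotated start, chr11:59787658-59787907, minus strand, from RefSeq on GRCm38.p6. Capitals mark CG dinucleotides, the sites of DNA methylation, of which there were 14.
Pld6 upstream window: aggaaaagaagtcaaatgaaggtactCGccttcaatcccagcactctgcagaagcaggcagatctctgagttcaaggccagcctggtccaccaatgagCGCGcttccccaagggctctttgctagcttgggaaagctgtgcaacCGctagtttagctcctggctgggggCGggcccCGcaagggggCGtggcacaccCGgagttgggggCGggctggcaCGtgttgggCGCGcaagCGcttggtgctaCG
Of all 32851 promoter windows of this length, 29.4% held at least as many CG dinucleotides, and the median window held 6. Another window listed for Pld6, chr11:59787223-59787472, is not shown. It held 21 CG dinucleotides, and 16.3% of all windows held at least as many. The search for CG reads the same on both strands. DNA methylation was not measured in these files, and the count describes the letters alone.

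The other members lie on chromosomes 3 (Pld1 and Mfn1), 4 (Mfn2), 7 (Pld3), 11 (Pld2), 12 (Lpin1 and Pld4) and 16 (Dnm1l and Opa1), and all 10 are protein coding. In the annotation, exons of Pld2 overlapped a pseudogene and exons of Dnm1l an antisense transcript, both on the opposite strand and neither listed in the tables. No other member shared exonic sequence with another gene. All 10 members passed the filter on low counts at both stages.

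Total estimated counts lay between 5194238 and 14578341 at L/Z and between 9900346 and 23498968 at P0. Counts of the gene Rn45s made up 8.273% in L/Z WT replicate 1, 8.063% in L/Z Pld6 KO replicate 1 and 0.134% to 0.301% in the other L/Z libraries. At P0 they made up 0.0% in every Pld6 KO library and 0.104% to 4.431% in the other libraries. The part of this P0 difference in the values below was not tested. Marker genes were compared with the labels. Summed CPM (counts scaled to library size) of 9 L/Z spermatocyte markers lay between 1883 and 7194 in the L/Z libraries and between 50.7 and 220.1 in the P0 libraries, where 7 Sertoli cell markers summed to between 1595 and 2757. The 5 prospermatogonial markers were higher at L/Z (153.0 to 278.9 CPM) than in P0 testes (9.5 to 84.6), and do not set the P0 germ cells apart. Late germ cell markers summed to 76.3 CPM in P0 Dnmt3L KO replicate 1 and to between 1.95 and 13.5 in the other P0 libraries. The L/Z Dnmt3L KO libraries stood apart from WT: their L/Z markers summed to 6370 and 7194 CPM against 1883 and 3398, their spermatogonial markers to between 557.9 and 853.8 against 1116 to 1294, and their Sertoli markers to between 39.3 and 110.8 against 136.4 to 201.3. The L/Z Pld6 KO libraries overlapped WT for the L/Z markers (2378 to 3859) and the Sertoli markers (132.6 to 225.6). They were below WT for spermatogonial markers (1055 to 1094) and prospermatogonial markers (222.8 to 229.1 against 239.3 to 278.9). The same held for late germ cell markers (4.36 to 13.2 against 21.1 to 40) and Leydig markers (7.57 to 10.5 against 13.9 to 18.7). Within each library, the deviation of a gene from its mean level correlated with GC content across genes, with Spearman's rho of 0.346 and 0.337 for the L/Z WT pair, 0.193 and -0.221 for the Pld6 KO pair and -0.26 and -0.434 for the Dnmt3L KO pair. The part of cell composition and GC content in the values below, at either stage, was not tested except where an offset for GC content and length is named. In these bulk samples, fewer cells of a type and less RNA per cell cannot be told apart.

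Pld6 was first examined as the check of the genotypes. In L/Z WT spermatocytes it had 344 and 352 counts, or 19.0 and 19.5 FPKM (fragment counts scaled to transcript length and to library size). Both L/Z Pld6 KO libraries held 0 counts. Set against 3 counts per library, WT stood at least 87.8-fold higher than Pld6 KO (edgeR quasi-likelihood test, adjusted p = 0.000257), and Dnmt3L KO at least 46.5-fold higher (adjusted p = 0.000882). Whole P0 testes of WT gave 57 and 40 counts for Pld6, which were 2.95 and 2.08 FPKM. The 4 P0 Pld6 KO libraries held 2, 0, 1 and 2 counts, and the 3 DKO libraries held 0. All mutant libraries were below every WT and Dnmt3L KO library.

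At P0 the ratio of WT to Pld6 KO was 37.9, with an exact 95% counting interval of 15.7 to 119.5 that covers counting error only. The edgeR adjusted p was 0.0585, just over the threshold of 0.05. Over 20 alternatives this adjusted p ranged from 3.19e-05 to 0.58, and it fell to 0.04 when P0 Dnmt3L KO replicate 2 was left out. Pld6 in DKO was at least 18.3-fold lower than in WT (adjusted p = 0.0299) and at least 17-fold lower than in Dnmt3L KO (adjusted p = 0.024). Both edgeR calls depended on single libraries. Against WT, leaving out WT replicate 1 or 2 gave an adjusted p of 0.155 or 0.0667, and leaving out DKO replicate 1, 2 or 3 gave 0.109, 0.0662 or 0.106. Against Dnmt3L KO it was 0.318 without Dnmt3L KO replicate 1, and 0.0955 or 0.12 without DKO replicate 1 or 3. At L/Z, the comparison of Dnmt3L KO with Pld6 KO gave 0.0531 without Dnmt3L KO replicate 2. P0 Pld6 KO and DKO were both at or under the floor of 3 counts, so no fold is given between them.

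Pld6 was also lower in L/Z spermatocytes that lacked Dnmt3l while carrying an intact Pld6 gene. The 2 L/Z Dnmt3L KO libraries held 63 and 261 counts, or 8.28 and 12.1 FPKM, both below the WT values of 19.0 and 19.5. The log2 fold change was -0.90 (SE 0.31, 95% interval -1.58 to -0.22), and the adjusted p of 0.0993 in edgeR missed the threshold. The shallower library, replicate 1, had the lower value. Without it the log2 fold change was -0.68, without replicate 2 it was -1.23, and with an offset for GC content and length it was -0.61. At P0 the groups overlapped: Dnmt3L KO testes had 3.45 and 1.15 FPKM, on either side of WT, the higher in replicate 1, where late germ cell markers were high, with a log2 fold change of -0.11 (95% interval -1.47 to 1.26). The difference between the 2 stages in this effect was -0.82 (95% interval -2.27 to 0.64), with an edgeR adjusted p of 0.569. Summed CPM of 5 general germ cell markers lay between 204.9 and 252.0 in P0 WT, 106.9 and 330.5 in P0 Pld6 KO, and 261.7 and 431.2 in P0 Dnmt3L KO, and their part in the P0 Pld6 values was not tested.

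**Figure D1:**
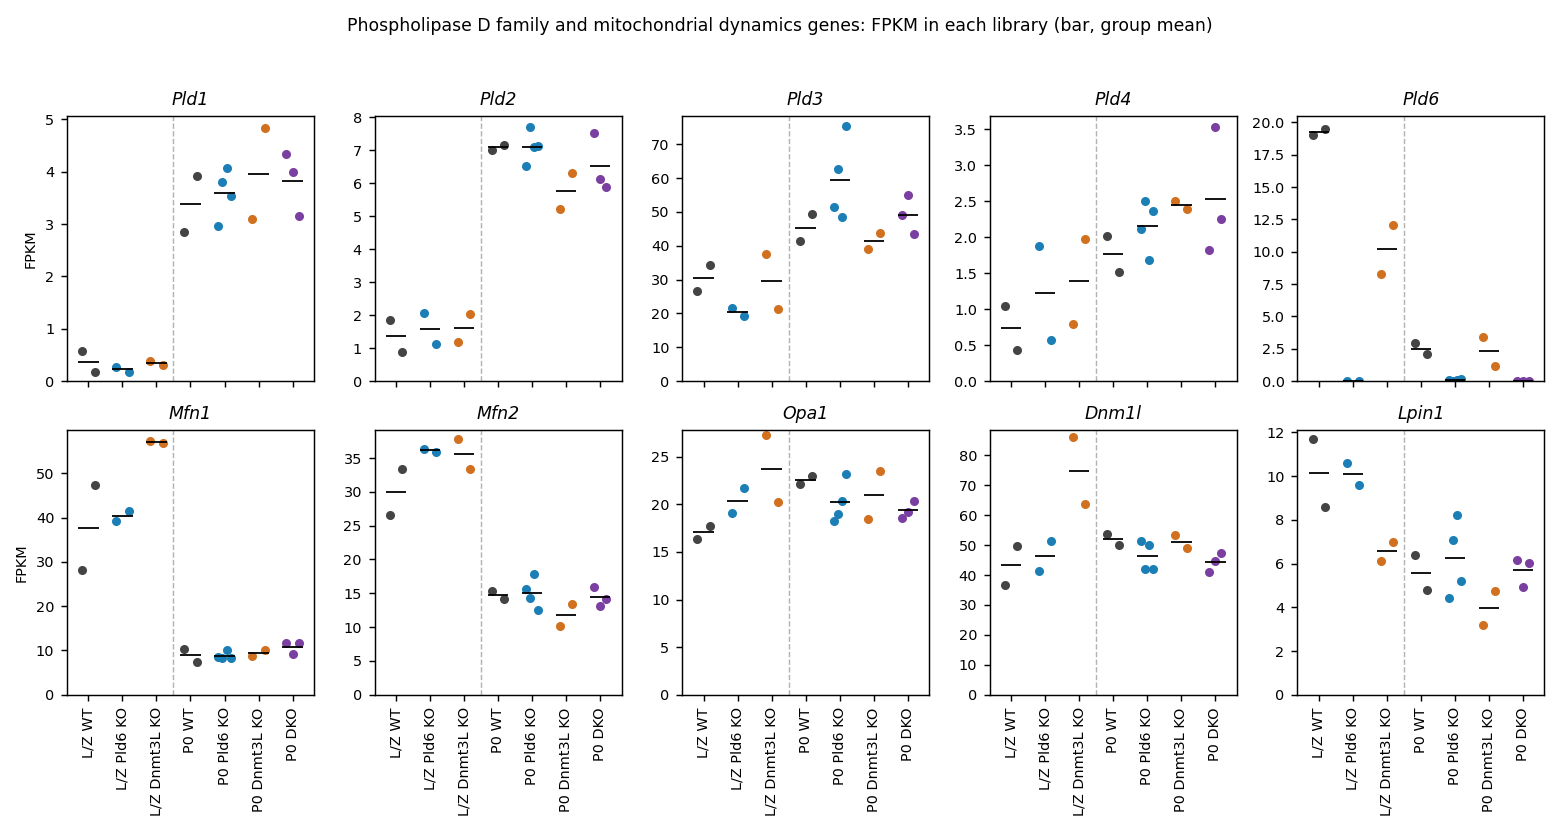
FPKM of each member in each library (points) with the group mean (bar), for L/Z libraries left of the dashed line and P0 libraries right of it; each panel has its own linear axis from 0. Pld6 is near 0 in Pld6 KO and DKO, Pld1 and Pld2 are higher at P0, and Mfn1 is higher at L/Z.

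In WT L/Z spermatocytes, the fission gene Dnm1l and the mitofusins were among the highest members, and Pld1, Pld2 and Pld4 were the lowest. Mean FPKM was 43.2 ± 9.34 (SD, n = 2) for Dnm1l, 37.7 ± 13.6 for Mfn1, 30.6 ± 5.44 for Pld3 and 30.0 ± 4.8 for Mfn2. Neighbours in this run of 4 overlapped in their 2 libraries and cannot be ordered. Below them stood Pld6 at 19.3 ± 0.416, Opa1 at 17 ± 0.944 and Lpin1 at 10.2 ± 2.17, each separated from the next. Pld2, Pld4 and Pld1 followed at 1.37 ± 0.677, 0.736 ± 0.436 and 0.374 ± 0.278 FPKM, and adjacent members again overlapped. Pld1 and Pld4 rested on only 9 to 32 counts in the 2 WT libraries.

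WT testes at P0 gave a different order. Dnm1l led with 51.9 ± 2.48 FPKM, and Pld3, a lysosomal exonuclease of the PLD family, was next with 45.4 ± 5.47. Opa1 (22.6 ± 0.639), Mfn2 (14.7 ± 0.856) and Mfn1 (8.89 ± 2.02) followed without overlap. Pld2 (7.08 ± 0.113) and Lpin1 (5.59 ± 1.14) came before Pld1 (3.38 ± 0.761) and Pld6 (2.51 ± 0.615), which overlapped each other. Pld4, a relative of Pld3 known from immune cells, was lowest at 1.77 ± 0.35.

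Set side by side, Pld6 had a mean FPKM 7.66 times as high in L/Z WT as in P0 WT, the largest such ratio among the members. Mfn1 stood at 28.1 and 47.3 FPKM in L/Z WT against 10.3 and 7.46 at P0, a ratio of 4.24. Mfn2 (ratio 2.04) and Lpin1 (ratio 1.82) were also higher in both L/Z WT libraries than in either P0 library. The classical phospholipases went the other way. Pld1, which makes phosphatidic acid from phosphatidylcholine as Pld2 does, had 0.57 and 0.177 FPKM at L/Z and 2.84 and 3.92 at P0, a ratio of 0.11. For Pld2 the values were 1.85 and 0.893 against 7 and 7.16, a ratio of 0.194. Opa1 (0.753), Dnm1l (0.832), Pld3 (0.673) and Pld4 (0.417) also had ratios under 1. For Dnm1l the nearest WT values of the 2 stages were 49.8 FPKM at L/Z and 50.2 at P0. How many of all genes lacked overlap between the stages was not determined. No test was made, because stage cannot be told apart from tissue, read length (50 or 100 bp) and the separate normalization of the tables.

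Ratios of related genes within a library do not depend on library size. Mfn1 over Mfn2, the balance of the mitofusins, was 1.05 to 1.70 in the 6 L/Z libraries and 0.528 to 0.857 in the 11 P0 libraries. The L/Z ratio was 1.05 and 1.42 in WT. It was 1.08 and 1.16 where Pld6 was lost, and 1.52 and 1.70 where Dnmt3l was lost. At P0 the WT ratios were 0.673 and 0.528, and those of Pld6 KO lay between 0.539 and 0.656. The Dnmt3L KO ratios were 0.857 and 0.755, and the DKO ratios 0.735, 0.702 and 0.828. At both stages every library without Dnmt3l was above every library with it. This is a description with no test. With the GC and length offset, the L/Z log2 fold changes in Dnmt3L KO against WT were 0.37 for Mfn1 and 0.42 for Mfn2. Without the offset they were 0.59 and 0.24, so the higher L/Z ratio than in WT was not seen under it. Against L/Z Pld6 KO, the offset gave 0.49 for Mfn1 and 0.22 for Mfn2, beside 0.49 and -0.03 without it. Mfn1 transcripts are poorer in GC than Mfn2 transcripts (45.9% against 53.1%), and the GC correlation was also lowest in the Dnmt3L KO libraries at both stages, at -0.385 and -0.388 for P0. It was not low in the DKO libraries, at 0.26, 0.007 and 0.032, against 0.167 and -0.004 in P0 WT. At P0 the offset was among 21 alternatives. Over these, the P0 log2 fold change in Dnmt3L KO against WT lay between -0.14 and 0.32 for Mfn1. For Mfn2 it lay between -0.54 and -0.13. The P0 ratios themselves were not recomputed with the offset, so the part of GC content in them is not given.

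Opa1 over Dnm1l, inner-membrane fusion against fission, had overlapping ranges at the 2 stages, 0.317 to 0.46 at L/Z and 0.347 to 0.553 at P0. The L/Z Dnmt3L KO libraries, both at 0.317, were below the other L/Z libraries, whose lowest value was 0.355. Pld1 over Pld2 was 0.134 to 0.326 at L/Z and 0.407 to 0.766 at P0. Pld3 over Pld4 ranged from 10.8 to 80.4 at L/Z, where Pld4 counts were few, and from 15.6 to 32.4 at P0.

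**Figure D2:**
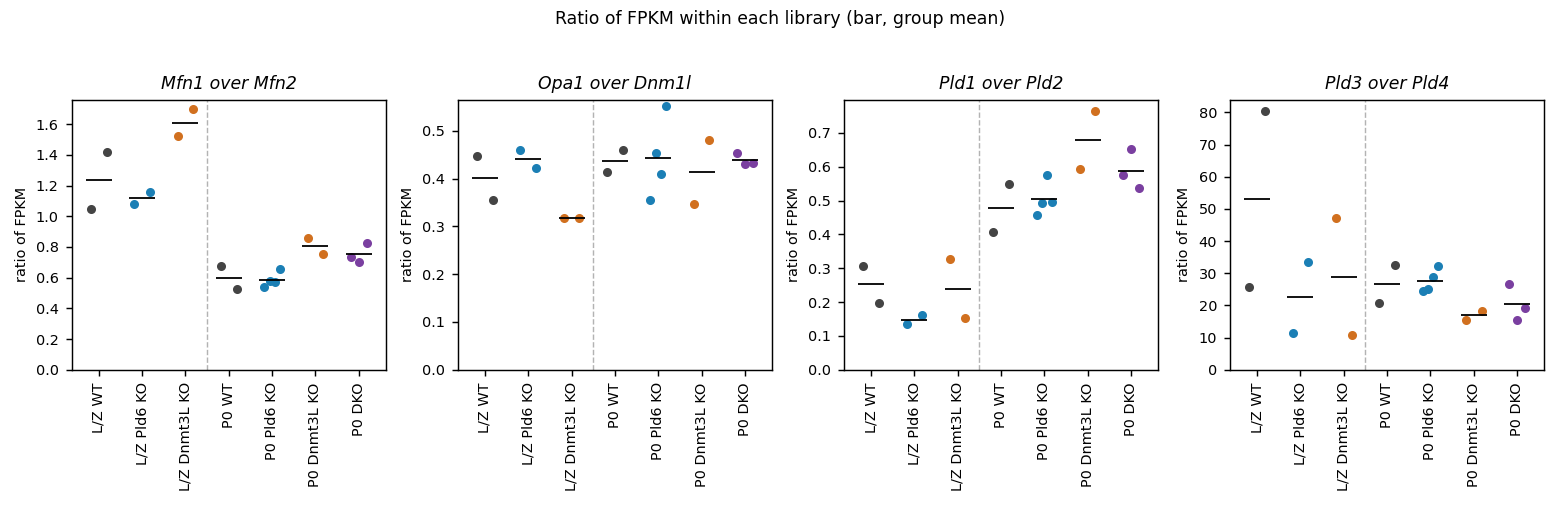
Ratio of FPKM of 2 related members within each library (points) with the group mean (bar), on linear axes from 0, L/Z left of the dashed line and P0 right. The Mfn1 over Mfn2 ratio is above 1 in every L/Z library and below 1 in every P0 library.

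Loss of Pld6 at L/Z was not accompanied by a called change in any other member. A gene was called at an adjusted p under 0.05 and a fold over 2, which 0.225% of the 14662 genes tested reached in this comparison. Of the 10 members, 1 was called, Pld6 itself, and none of the other 9 had an unadjusted p under 0.05 in edgeR. DESeq2 and limma on log2(FPKM + 1) also called 1 member each. The median log2 fold change of the 9 was 0.13, beside 0.00 over all genes tested, and 6 of the 9 were positive.

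Pld3 had the smallest p of the 9. WT stood at 26.7 and 34.4 FPKM and Pld6 KO at 21.6 and 19.2, so that the groups did not overlap. Its log2 fold change was -0.59 (SE 0.28, 95% interval -1.20 to 0.02, edgeR adjusted p = 0.547), and -0.37 with an offset for GC content and length. Mfn2, at 26.6 and 33.4 FPKM in WT against 36.4 and 35.9 with Pld6 lost, had a log2 fold change of 0.27 with a 95% interval of -0.18 to 0.72. For Opa1 the WT values were 16.4 and 17.7 FPKM and the Pld6 KO values 19.1 and 21.7, with a log2 fold change of 0.27 (95% interval -0.20 to 0.73) that turned to -0.07 with the GC and length offset. Mfn1 (0.10, -0.45 to 0.65) and Dnm1l (0.13, -0.40 to 0.65) overlapped WT and turned to -0.12 and -0.10 with that offset. Lpin1 was at -0.01 (-0.52 to 0.51). The 95% intervals of 5 members (Mfn1, Mfn2, Opa1, Dnm1l and Lpin1) excluded a 2-fold change in either direction. Those of Pld1 (-2.27 to 0.79), Pld2 (-0.91 to 1.30) and Pld4 (-0.99 to 2.33) were too wide to do so, at 9 to 79 counts per library in these groups.

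**Figure D3:**
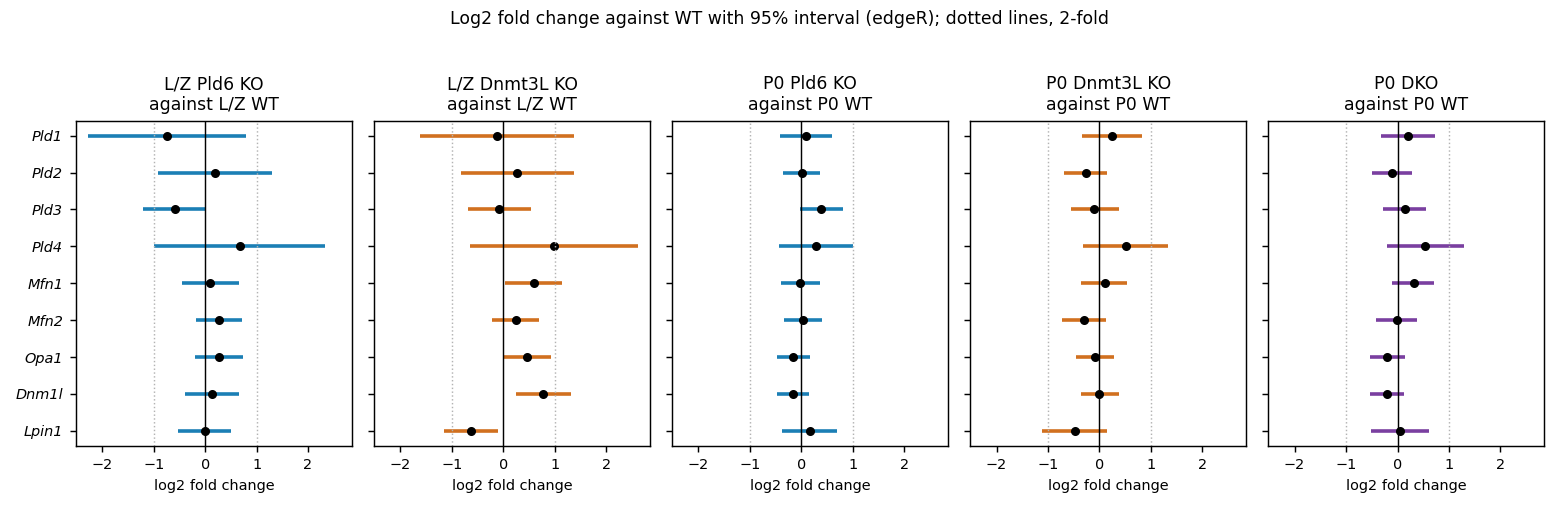
Log2 fold change against WT (black points) with its 95% interval (bars) from edgeR for the 9 members other than Pld6 in 5 comparisons; the solid line is 0 and the dotted lines mark a 2-fold change. Every interval at P0 includes 0, and in L/Z Dnmt3L KO the intervals of Dnm1l, Mfn1 and, narrowly, Opa1 lie above 0 and that of Lpin1 below it.

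The L/Z Dnmt3L KO spermatocytes had the largest number of genes called, 5.47% of those tested. Of the 10 members, 0 were called by edgeR, DESeq2 or limma on log2(FPKM + 1). With 10 members, this number cannot be told apart from the share over all genes. Without Dnmt3L KO replicate 1 the number of genes called fell from 802 to 1. An unadjusted p under 0.05 was reached by 5 members, Pld6, Dnm1l, Lpin1, Mfn1 and Opa1, beside 26.7% of all genes tested. The 9 members other than Pld6 had a median log2 fold change of 0.27, against -0.04 over all genes.

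Dnm1l, the fission gene, had the lowest adjusted p. Its FPKM was 36.6 and 49.8 in WT and 86.1 and 63.7 in Dnmt3L KO, with no overlap. The log2 fold change was 0.78 (SE 0.24, 95% interval 0.25 to 1.31, edgeR adjusted p = 0.0734). DESeq2 gave an adjusted p of 0.0185 at a log2 fold change of 0.79, under the fold threshold, and the adjusted p over all alternatives ranged up to 0.388. Of the genes of outer-membrane fusion, Mfn1 had 28.1 and 47.3 FPKM in WT and 57.4 and 56.8 in Dnmt3L KO, a log2 fold change of 0.59 (0.04 to 1.15, adjusted p = 0.162). Mfn2, at 37.8 and 33.4 in Dnmt3L KO, had a log2 fold change of 0.24 (-0.21 to 0.69). Opa1 stood at 27.3 and 20.2 FPKM, above both WT values, with 0.47 (0.00 to 0.93, adjusted p = 0.184).

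Lpin1 was the member other than Pld6 with a lower value at an unadjusted p under 0.05. It had 11.7 and 8.61 FPKM in WT and 6.14 and 6.98 in Dnmt3L KO, a log2 fold change of -0.62 (SE 0.24, 95% interval -1.15 to -0.10, edgeR adjusted p = 0.126). With the GC and length offset, Lpin1 was at -0.58, whereas Dnm1l moved to 0.35, Mfn1 to 0.37 and Opa1 to 0.11. Mfn2 moved up to 0.42, above Mfn1. Dnm1l and Opa1 have the lowest GC content of the members, 40.9% and 43.5%, and Lpin1 has 50.1%. Mfn1 passed the call without WT replicate 2, at a log2 fold change of 1.02 and an adjusted p of 0.0364, and stood at 0.26 without WT replicate 1. Its edgeR adjusted p over all alternatives lay between 0.0364 and 0.612.

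Of the phospholipases in L/Z Dnmt3L KO, Pld4 had the largest log2 fold change and the widest interval, 0.99 (-0.64 to 2.61, edgeR adjusted p = 0.415). Its FPKM was 0.799 and 1.98 against 1.04 and 0.428 in WT, so that the groups overlapped. Macrophage markers summed to between 37.4 and 57.3 CPM there against 7.06 to 30.7 in WT, and their part in the Pld4 values was not tested. Pld1 (-0.13, -1.62 to 1.37), Pld2 (0.27, -0.82 to 1.37) and Pld3 (-0.08, -0.68 to 0.53) overlapped WT.

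Directly between the mutants at L/Z, 0.0477% of genes were called and 1 of the 10 members, Pld6. Dnm1l was higher in Dnmt3L KO than in Pld6 KO, where it had 41.5 and 51.4 FPKM, by a log2 value of 0.65 (95% interval 0.12 to 1.18, edgeR adjusted p = 0.214). Lpin1, at 10.6 and 9.59 FPKM in Pld6 KO, was lower in Dnmt3L KO by a log2 fold change of -0.62 (-1.14 to -0.09, adjusted p = 0.227). Neither group overlapped the other for these 2 genes, and neither difference was called.

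In P0 testes no member other than Pld6 differed by a called amount. Against WT, the share of 15901 genes called was 0.00629% for Pld6 KO, 0% for Dnmt3L KO and 0.0126% for DKO. Of all genes, 12.9% had an unadjusted p under 0.05 in Dnmt3L KO. The numbers of members called were 0, 0 and 1 in that order, the last being Pld6. DESeq2 and limma on log2(FPKM + 1) each called 1, 0 and 1, and none of the 9 others had an unadjusted p under 0.05 in edgeR in any of these 3 comparisons. Their median log2 fold changes were 0.03, -0.09 and 0.05. The 95% intervals excluded a 2-fold change for 8, 7 and 8 of the 9 in the same order. Pld4 was an exception each time, and Lpin1 also in Dnmt3L KO.

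Among the phospholipases other than Pld6, Pld3 was again the member with the smallest p in P0 Pld6 KO, here with a positive sign. The WT libraries had 41.5 and 49.3 FPKM and the Pld6 KO libraries 51.4, 62.6, 48.5 and 75.5, a log2 fold change of 0.39 (SE 0.19, 95% interval -0.02 to 0.80, edgeR adjusted p = 0.963). The lowest of the 4 Pld6 KO libraries lay below the higher WT library. In DKO, Pld3 was at 49.0, 55.1 and 43.5 FPKM and overlapped WT. Pld2 had 5.21 and 6.30 FPKM in Dnmt3L KO, below 7 and 7.16 in WT, with a log2 fold change of -0.27 (-0.69 to 0.15). Pld1 had log2 fold changes of 0.09 on loss of Pld6, 0.25 on loss of Dnmt3l and 0.20 on loss of both.

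Dnm1l and Opa1 were the steadiest members at P0. Over the 11 libraries Dnm1l ranged from 41.1 to 53.7 FPKM and Opa1 from 18.3 to 23.5, coefficients of variation of 9.64% and 10%. Both were lower in every DKO library than in either WT library. Dnm1l had 41.1, 44.6 and 47.2 FPKM in DKO against 53.7 and 50.2 in WT, and a log2 fold change of -0.21 (95% interval -0.54 to 0.13). For Opa1, 18.6, 19.2 and 20.4 stood against 22.1 and 23.0, with -0.20 (-0.54 to 0.14). Mfn2 ranged from 10.1 to 17.8 FPKM. Its Dnmt3L KO values of 10.1 and 13.4 lay below both WT values of 15.3 and 14.1, with a log2 fold change of -0.31 (-0.73 to 0.12). Lpin1 varied more, from 3.19 to 8.22 FPKM, and its log2 fold change in Dnmt3L KO was -0.48 (-1.11 to 0.15, edgeR adjusted p = 0.491).

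Between the mutants at P0, 0% of genes were called in DKO against Pld6 KO and 0.0755% in DKO against Dnmt3L KO, with 6.02% and 17.8% at an unadjusted p under 0.05. The counts of members called by edgeR were 0 and 1, the latter being Pld6, and DESeq2 and limma on log2(FPKM + 1) also called 0 and 1. The only member with an unadjusted p under 0.05 was Pld6 in each. Lpin1 was 0.53 higher on the log2 scale in DKO than in Dnmt3L KO (95% interval -0.05 to 1.10, edgeR adjusted p = 0.316), with 6.16, 4.94 and 6.01 FPKM against 3.19 and 4.76. All 9 members other than Pld6 had intervals within a 2-fold change between DKO and Pld6 KO.

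The test of whether the 2 mutant effects added up in DKO asks whether loss of Pld6 acted differently with and without Dnmt3l. At an adjusted p under 0.05, 0% of genes and 0 of the 10 members departed from additivity in edgeR, with 10.9% of genes at an unadjusted p under 0.05, and DESeq2 and limma on log2(FPKM + 1) also called 0 members. For the 9 members other than Pld6 the departure lay between -0.25 (Pld4) and 0.37 (Lpin1) on the log2 scale, and none had an unadjusted p under 0.05. Pld6 itself reached one, but between levels at the floor.

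Stage differences of the mutant effects were tested over the 14 libraries of WT, Pld6 KO and Dnmt3L KO. For the Pld6 KO effect, 0.0121% of genes and 0 of the 10 members differed at an adjusted p under 0.05, and DESeq2 called 0 members. Pld3 had opposite signs at the 2 stages. Its Pld6 KO effect was lower at L/Z than at P0 by a log2 difference of -1.0 (SE 0.33, 95% interval -1.72 to -0.29), with an unadjusted p of 0.00913 and an edgeR adjusted p of 0.432. Over the alternatives run, this difference ranged from -1.13 to -0.85. The GC and length offset, the Rn45s factor and limma were not among them. Pld6 was the other member with an unadjusted p under 0.05 there, between levels at the floor. Such a p was reached by 9.52% of all genes.

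The Dnmt3L KO effect differed between stages for 0.665% of genes and for 0 of the 10 members, and DESeq2 called 0. Dnm1l had the smallest p, with a difference of 0.74 (95% interval 0.13 to 1.35, unadjusted p = 0.0206, edgeR adjusted p = 0.208). It was the only member with an unadjusted p under 0.05, beside 17.2% of all genes. Its Dnmt3L KO libraries stood above WT at L/Z, whereas at P0 they held 53.3 and 49.1 FPKM against 53.7 and 50.2 in WT. Opa1 (0.51, -0.07 to 1.09) and Mfn2 (0.51, -0.10 to 1.12) had similar differences with intervals that reached 0.

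The wider pathways were described with 99 further genes in 7 lists, of which 96 passed the filter at L/Z and 99 at P0. In L/Z Pld6 KO 0 of 96 were called in either direction, beside 0.225% of all genes. Of the 96, 4 had an unadjusted p under 0.05, beside 9.17% of all genes, and the median log2 fold change was -0.06, beside 0.00 over all genes. The smallest p there belonged to Chchd6, a component of the cristae junctions (log2 fold change -0.61, edgeR adjusted p = 0.512). At P0 edgeR called none against WT in any of the 3 mutant groups, with 2 (Pld6 KO), 5 (Dnmt3L KO) and 4 (DKO) genes at an unadjusted p under 0.05, beside 5.06%, 12.9% and 7.97% of all genes. The smallest p-values among them belonged to Inf2, a formin that helps to constrict mitochondria before fission, in Pld6 KO (log2 fold change 0.54, edgeR adjusted p = 0.963) and in DKO (0.86, adjusted p = 0.254), and to Rhot2, which links mitochondria to motor proteins, in Dnmt3L KO (-0.47, adjusted p = 0.305).

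In L/Z Dnmt3L KO 1 of 96 pathway genes was called higher and 0 lower, beside 5.47% of all genes called in either direction. An unadjusted p under 0.05 was reached by 25 of the 96, beside 26.7% of all genes. Neither share stood above that of all genes. The called gene was Lclat1, an acyltransferase that remodels cardiolipin. WT had 5.73 and 7.02 FPKM, Pld6 KO 8.75 and 11, and Dnmt3L KO 20 and 12.1, so that the 3 groups did not overlap. The log2 fold change against WT was 1.31 (SE 0.28, edgeR adjusted p = 0.0234). The call was lost with the GC and length offset (1.09, adjusted p = 0.0612), with limma on log2(FPKM + 1) (adjusted p = 0.0512), and without L/Z WT replicate 1 (0.12) or L/Z Dnmt3L KO replicate 1 (0.187). Over all alternatives its adjusted p lay between 0.000515 and 0.187.

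Below the fold threshold, 4 more pathway genes had an adjusted p under 0.05 in L/Z Dnmt3L KO. Yme1l1, a protease that cleaves OPA1, was 0.88 higher on the log2 scale (SE 0.22, edgeR adjusted p = 0.0362), with 49.0 and 48.7 FPKM in WT and 99.2 and 82.1 in Dnmt3L KO. Spire1, an actin nucleator with a form on mitochondria that takes part in fission, was 0.90 higher (adjusted p = 0.0375). Asz1, a piRNA factor on the mitochondrial surface as PLD6 is, was 0.85 higher (adjusted p = 0.0305), at 47.5 and 53.4 FPKM in WT and 91.2 and 91.1 in Dnmt3L KO. Ralb, a small GTPase that can act with PLD1, had a log2 fold change of -0.98 (adjusted p = 0.0348). With the GC and length offset all 4 lost an adjusted p under 0.05, at log2 fold changes of 0.30 for Yme1l1, 0.78 for Spire1, 0.21 for Asz1 and -0.91 for Ralb.

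By list, the median log2 fold change in L/Z Dnmt3L KO was 0.09 for 15 fission adaptors and regulators, 0.19 for 19 genes of fusion, OPA1 processing and cristae, 0.31 for 7 genes of mitochondrial transport and turnover, 0.05 for 34 genes of phosphatidic acid and cardiolipin metabolism, and 0.45 for the 4 piRNA factors of the mitochondrial surface. It was -0.10 for the 6 tested genes among Pld5 and the activators of PLD1 and PLD2, and 0.10 for 11 general mitochondrial genes, beside -0.04 over all genes.

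**Figure D4:**
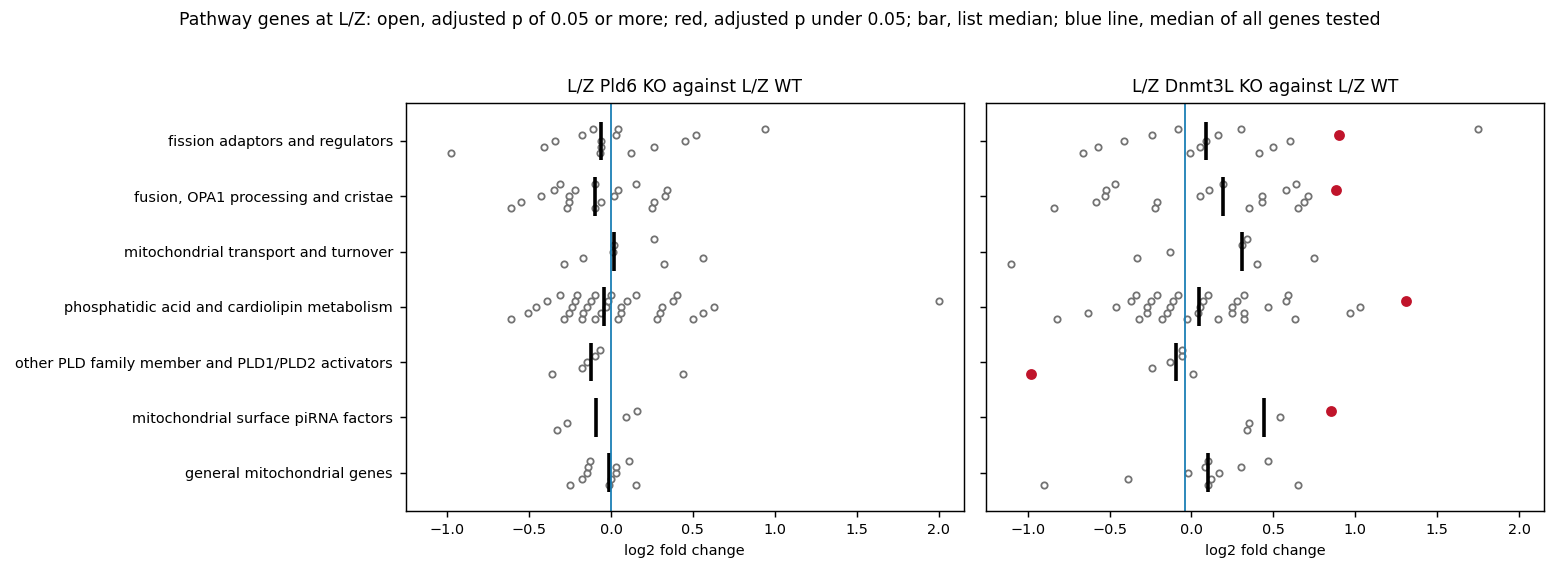
Log2 fold change of each pathway gene against WT at L/Z, by list, in Pld6 KO (left) and Dnmt3L KO (right); red points have an edgeR adjusted p under 0.05, black bars are list medians and the blue line is the median of all genes tested. Red points occur in Dnmt3L KO, with 4 above 0 and 1 below.

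The genes most like Pld6 were sought over the 8 WT and Dnmt3L KO libraries, after each stage mean had been subtracted from log2 CPM. Across 10343 genes the median Pearson correlation with Pld6 was 0.0447. The 5 highest were Bid (0.973), Lonrf3 (0.957), Gtsf1 (0.952), Hmox1 (0.951) and 9630033F20Rik (0.949). Pld6 deviated by 0.45 and 0.49 in L/Z WT and -0.75 and -0.19 in L/Z Dnmt3L KO, and by 0.65 and -0.94 in the 2 P0 Dnmt3L KO libraries, so that the spread between 2 replicates entered these values as much as genotype did. The other members compared ranged from -0.831 (Opa1) to 0.273 (Lpin1). The 8 points share library depth and composition, and the values are a description.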

How the data were processed

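PolyA(+) RNA of L/Z spermatocytes and P0 testes had been sequenced, and the authors aligned reads with TopHat2 to mm10 and quantified genes with Cuffdiff (versions not given in the sources used here). The deposited tables hold estimated counts of fragments per gene and library, 97.8% (L/Z) and 97.7% (P0) of them whole numbers, and FPKM scaled by the authors to transcript length and library size. The tables number replicates from 0 and the labels from 1. Lower numbers were matched to lower labels, on which only a replicate's name rests, not its group. The labels call replicates biological, without naming animals, and p-values measure the spread between these samples.

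After rounding, the estimated counts were fitted with edgeR 4.0.16 (R 4.3.3): filterByExpr, TMM, a quasi-likelihood fit of all groups of a stage, and Benjamini-Hochberg adjustment over all genes tested (14662 at L/Z, 15901 at P0, 16547 in the fit of both stages). Calls needed an adjusted p under 0.05 and, except for interactions, a fold over 2. Intervals are 95% from the moderated degrees of freedom. A fold against a group at 0 was set against 3 counts per library. CPM used TMM-scaled library sizes. Depth sets the precision: at L/Z, Pld1 and Pld4 had at most 50 counts.

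Alternatives were DESeq2 1.42.0 (size factors, or its Wald test), no filter, a mean of at least 50 counts, limma 3.58.1 on log2(FPKM + 1) or log2(FPKM + 0.1), compared groups only, no fold threshold, a replicate block, a loess offset (span 0.3) for GC content and length, a factor for the 2 L/Z libraries with over 1% Rn45s, and leaving out each library. The script was tested on simulated data. Members and lists were chosen with earlier results of these data known. All 10 members were named. Pathway genes were named where called in any comparison, and otherwise, with none called at a stage, the gene of smallest p in a comparison with WT. The 4 genes with an adjusted p under 0.05 below the fold threshold were added after their values were seen. Genes like Pld6 needed a mean of at least 50 counts at each stage, a minimum that Pld6 itself did not reach at P0. Positions, GC content and sequences came from RefSeq GRCm38.p6 and GENCODE vM21. Tables and plots were made in Python 3.11.15 with pandas 2.3.3 and matplotlib 3.10.9.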

Additional observations from a re-analysis of the deposited data

Results flagged for a closer look

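Mfn1 in P0 Pld6 KO replicate 3 stood at 44.9 CPM, apart from the other 3 libraries of its group, which lay between 36.5 and 37.3 CPM. The gap made up 0.904 of the group's range. The P0 Pld6 KO group was the group large enough for this check, which was made for each of the 10 members, and chance alone gives about 1 in 20 such results. P0 Mfn1 values ranged from 32.9 to 52.7 CPM in the other groups, so the value lay inside the range of the stage.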

How the results depend on the processing

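Of 2135 member values recomputed under the alternatives, 11 lost a call and 7 gained one, and no called value changed sign. All of these concerned Pld6 except 1, Mfn1 in L/Z Dnmt3L KO. Among 1855 values of the 9 other members, 128 uncalled ones changed sign, 31 of them by more than 1 SE.

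The number of members called at P0 in Pld6 KO against WT was 1 in place of 0 with no low-count filter, with DESeq2's Wald test, with limma on log2(FPKM + 1) or log2(FPKM + 0.1), and with the compared groups only. In DKO against WT and against Dnmt3L KO it was 0 in place of 1 with a mean of at least 50 counts, which left Pld6 untested, and with the replicate block. Leaving out 1 library gave between 0 and 1 member called in L/Z Dnmt3L KO against WT, L/Z Dnmt3L KO against Pld6 KO, P0 Pld6 KO against WT, P0 DKO against WT and P0 DKO against Dnmt3L KO.

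The replicate block gave Pld6 an adjusted p in edgeR of 0.055 in P0 DKO against WT and 0.118 against Dnmt3L KO, and it changed no other call of a member. Samples with the same number did not deviate together throughout, so the numbers were not taken as pairs. At L/Z the correlations were 0.485 (WT and Pld6 KO), -0.144 (WT and Dnmt3L KO) and -0.135 (the mutants). At P0 the correlations lay between -0.332 and 0.271. In L/Z WT and L/Z Pld6 KO, the library rich in Rn45s was replicate 1 of each group, at 8.273% and 8.063%. The other L/Z libraries, with both of Dnmt3L KO among them, held 0.134% to 0.301%. The part of Rn45s content in the correlation of 0.485 was not tested.

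The background shares depended strongly on the setting, and the cause was not tested. Genes called ranged over the alternatives from 1 to 1139 in L/Z Dnmt3L KO against WT (802 as reported), 1 to 101 in L/Z Pld6 KO (33), 0 to 355 between the L/Z mutants (7), 0 to 14 in P0 Pld6 KO (1), 0 to 71 in P0 Dnmt3L KO (0), 1 to 102 in DKO against WT (2), 0 to 6 against Pld6 KO (0) and 0 to 258 against Dnmt3L KO (12). They ranged from 0 to 54 for the departure from additivity (0), and from 1 to 45 and 2 to 699 for the stage differences of the Pld6 KO (2) and Dnmt3L KO (110) effects. The Rn45s factor, the GC and length offset and limma were not run for the stage differences. Depth limits Pld1, Pld2 and Pld4 at L/Z and Pld6 at P0.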
